A study of Mus musculus with 10 samples.

Results

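Resident macrophages marked by Cd163, Lyve1 and related genes made up 949 of the 10914 cells sequenced from inguinal white adipose tissue, 784 of 8985 cells of the Bbs8 KO mouse and 165 of 1929 cells of the Bbs8 WT mouse. They were selected on their own transcripts. A cell was taken when it held at least 2 unique molecular identifiers (UMIs, each 1 captured mRNA molecule) summed over Cd163, Lyve1, Folr2, Cbr2, Mrc1, Cd209f, Fcna and C1qa. That sum also had to exceed the sum over 6 monocyte genes, Lyz1, Ear2, Ccr2, Plbd1, Mcub and Csf2ra, and 5 stromal genes, Dcn, Col1a1, Col1a2, Col3a1 and Lum, had to hold under 3% of the cell's UMIs.

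The stromal vascular fraction, the non-adipocyte cells freed by collagenase digestion, came from lean mice 7 weeks of age that were either Bbs8-/- (Bbs8 KO) or Bbs8+/+ (Bbs8 WT), with 1 mouse per genotype according to the series design. Bbs8, listed under its gene name Ttc8, codes for a subunit of the BBSome, a complex that carries membrane proteins at the primary cilium, and the allele was constitutive and not limited to macrophages. The study profiled the fraction to ask how loss of this gene alters the adipocyte precursor niche, and the libraries were made by Seq-Well S3, which captures single cells with barcoded beads in picowells. Column names divided the cells into 5 barcode sets per genotype, which could be matched to a genotype but not to any 1 of the 10 labelled samples. The set names start with KO5 or KO6 for Bbs8 KO cells and with WT3 or WT4 for Bbs8 WT cells, and what these 2 codes per genotype stand for is not given in the sources used here, so the sets were treated as technical. With 1 mouse per genotype by the series design, no difference between them could be tested, and all intervals given here are 95% intervals that cover counting error only.

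Tissue-resident macrophages of fat lie along vessels and between adipocytes, where they take up dying cells, lipoproteins and haemoglobin-haptoglobin complexes, and they depend on signalling through the CSF1 receptor. The selecting genes reflect that work: Cd163 is the haemoglobin-haptoglobin receptor, Lyve1 a hyaluronan receptor, Folr2 a folate receptor, Mrc1 the mannose receptor, Cd209f a C-type lectin, Fcna a ficolin, C1qa a chain of complement C1q and Cbr2 a carbonyl reductase. In adipose tissue such Lyve1-positive cells are usually described as lower in MHC class II than macrophages that derive from Ccr2-positive monocytes.

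The upstream sequences of 3 selecting genes are shown because macrophage genes are widely bound by the ETS factor PU.1, and the letters GAGGAAG, a core of its sites, could be looked for directly. Each is the 150 bases before the annotated start from RefSeq, build GRCm38.p6, given 5′ to 3′ on the gene's strand, with GAGGAAG or its reverse complement in capitals. Cbr2 spans chr11:120732022-120732171 on the minus strand, Mrc1 chr2:14229264-14229413 on the plus strand and Cd163 chr6:124304501-124304650 on the plus strand.
Cbr2: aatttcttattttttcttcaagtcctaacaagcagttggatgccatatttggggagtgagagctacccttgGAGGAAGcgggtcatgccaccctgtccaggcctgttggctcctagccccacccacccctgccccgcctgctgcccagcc
Mrc1: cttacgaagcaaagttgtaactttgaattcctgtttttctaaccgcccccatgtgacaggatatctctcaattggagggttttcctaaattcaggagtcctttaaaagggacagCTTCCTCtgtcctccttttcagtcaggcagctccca
Cd163: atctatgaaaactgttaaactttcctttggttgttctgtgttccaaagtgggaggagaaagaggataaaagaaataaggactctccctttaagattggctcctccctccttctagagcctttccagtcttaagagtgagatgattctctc
In Cbr2 the match began 79 bases before the start and in Mrc1 36 bases before it, while the Cd163 window held none. Over the 250 bases upstream, on both strands, GAGGAAG lay in 3 of 7 windows of the 6 selecting genes with an entry (Cbr2, Fcna and Mrc1) and in 10.6% of all 32851 promoter windows. Among the 8 matched genes that stood highest in these cells outside the selection, it lay in 4 of 10 windows (C1qc, Ccl8, F13a1 and Pf4). These matches describe letters and are not evidence of binding.

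The share of cells that met the selection was close in the 2 mice. It reached 8.73% (exact binomial interval 8.15 to 9.33) for Bbs8 KO and 8.55% (7.34 to 9.89) for Bbs8 WT, a difference of 0.17 percentage points with an interval of -1.28 to 1.52. Across barcode sets the share ran from 6.87 to 10.8% for Bbs8 KO sets, and from 7.12 to 9.34% in Bbs8 WT, so the sets of both genotypes overlapped. The KO5 sets were at 7.37 and 6.87% and the KO6 sets at 9.73, 8.73 and 10.8%. The direction of that difference turned with the selection, for it was 2.52 points at 1 marker UMI and -1.45 points when the stromal limit was 1%. By comparison, monocyte-like cells, in which the 6 monocyte genes held at least 2 UMIs and the larger sum, were 2.78% of the Bbs8 KO cells but 3.94% of the Bbs8 WT cells.

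The cells were shallow. The median member carried 329.5 UMIs (Bbs8 KO) or 309 UMIs (Bbs8 WT), other cells 246 or 275.5, and all members together 359543 and 71403. Many were chosen on few molecules: 141 of the 949 members carried a single one of the 8 marker genes, 321 carried 2 of them and 19 carried all 8. In 267 Bbs8 KO members (34.1%) and 36 Bbs8 WT members (21.8%) the marker sum was exactly 2. C1qb, which the selection did not use, stood at 1288 CPM (UMIs scaled so that each pool of cells sums to 1000000) in those Bbs8 KO members and at 3160 CPM in those Bbs8 WT members, against 4300 and 4863 CPM in members with 5 or more marker UMIs. Just outside the limit, cells with a sum of 1 held 613 CPM of C1qb (Bbs8 KO) or 1333 CPM (Bbs8 WT), and cells with no marker UMI 174 and 135 CPM. Between these, members with a sum of 3 held 1404 and 2824 CPM and those with a sum of 4 held 2776 and 3744 CPM, so C1qb was higher at each step in Bbs8 KO but not from 2 to 3 in Bbs8 WT.

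Transcripts of other cell types were also present in members and differed between the mice. At least 2 UMIs of another class other than stroma (T cell, B cell, endothelial, epithelial and similar lists) were found in 298 Bbs8 KO members (38.0%) and 26 Bbs8 WT members (15.8%). The summed B cell list stood at 2147 CPM for Bbs8 KO against 742 CPM in Bbs8 WT members, and at 3706 and 1046 CPM in all other cells. The T cell list stood at 1324 and 266 CPM in members and at 2325 and 662 CPM in other cells, so both lymphocyte lists were higher in Bbs8 KO inside and outside the members. The stromal list differed in opposite directions inside and outside the members, with 8308 CPM for Bbs8 KO against 3977 CPM in Bbs8 WT members but 27633 and 52074 CPM in other cells. The part of these transcripts in the genotype differences given here was not tested, apart from recounts in stricter sets of members. Of the barcodes, 36 occurred in more than 1 set, and 4 occurred in 7 or more sets, with 4 members among the cells that carried them.

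Ttc8, the deleted gene, had 0 UMIs in all Bbs8 KO cells, where 3 UMIs would be 0.954 CPM. Bbs8 WT members held 3 UMIs in 2 cells (42.0 CPM, interval 8.66 to 123), and all 5 Ttc8 UMIs of Bbs8 WT cells came from a single barcode set, WT4_p2. Of the BBSome and cilium list, 0 genes reached the level of 100 CPM that was required for genotype ratios, so no other part of this complex could be described in these cells.

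Genes that the selection did not use marked the same cells. Those that stood highest in members over all other cells were F13a1 (coagulation factor XIII A chain), Csf1r (the CSF1 receptor), C1qc, Pf4, C1qb, Ccl8, Stab1 (a scavenger receptor), Dab2 (an endocytic adaptor), Clec10a (a C-type lectin) and Ninj1. F13a1 was higher by 3.84 log2 units in the Bbs8 KO mouse and 3.90 in the Bbs8 WT mouse, Stab1 by 3.43 and 3.58 and C1qb by 3.46 and 3.93, each as a difference of log2(CPM + 20). Against monocyte-like cells the same ratios were smaller for F13a1 (2.35 and 1.69) and about as large for Stab1 (3.68 and 4.02). Because cells were grouped on macrophage transcripts, these ratios are a description. The macrophage marker Adgre1 (F4/80) was at 189 and 252 CPM in members against 15.4 and 17.1 CPM in other cells, and the lymphatic endothelial list, whose cells also express Lyve1, summed to 30.6 and 0 CPM in members, beside 44.5 and 51.2 CPM in other cells.

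The levels of the 8 selecting genes are a description, since they chose the cells, and 6 of them differed by under 2-fold between the mice. Cd163 was at 1594, 1546, 1757, 1117 and 1172 CPM in the Bbs8 KO sets KO5_p2, KO5_p3, KO6_p1, KO6_p2 and KO6_p3, and at 918, 2018, 2565, 1632 and 2185 CPM in the Bbs8 WT sets WT3_p1, WT3_p2, WT3_p3, WT4_p2 and WT4_p3. Lyve1 ran from 684 to 1302 CPM in the Bbs8 KO sets and from 677 to 1667 CPM in the Bbs8 WT sets. For Cd163, 3 Bbs8 WT sets lay above every Bbs8 KO set and WT3_p1 lay below them all, with a pooled log2 ratio of -0.35, and for Lyve1 the ranges overlapped widely (0.10). Folr2 (0.35), Mrc1 (-0.32), Cd209f (-0.35) and Fcna (0.33) likewise had overlapping sets. Recounted in cells chosen without the gene itself, the ratio was -0.45 (-0.76 to -0.14) for Cd163, -0.47 (-0.76 to -0.18) for Cd209f and -0.35 (-0.56 to -0.13) for Mrc1, and the intervals of Lyve1, Folr2 and Fcna held 0.

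**Figure D1:**
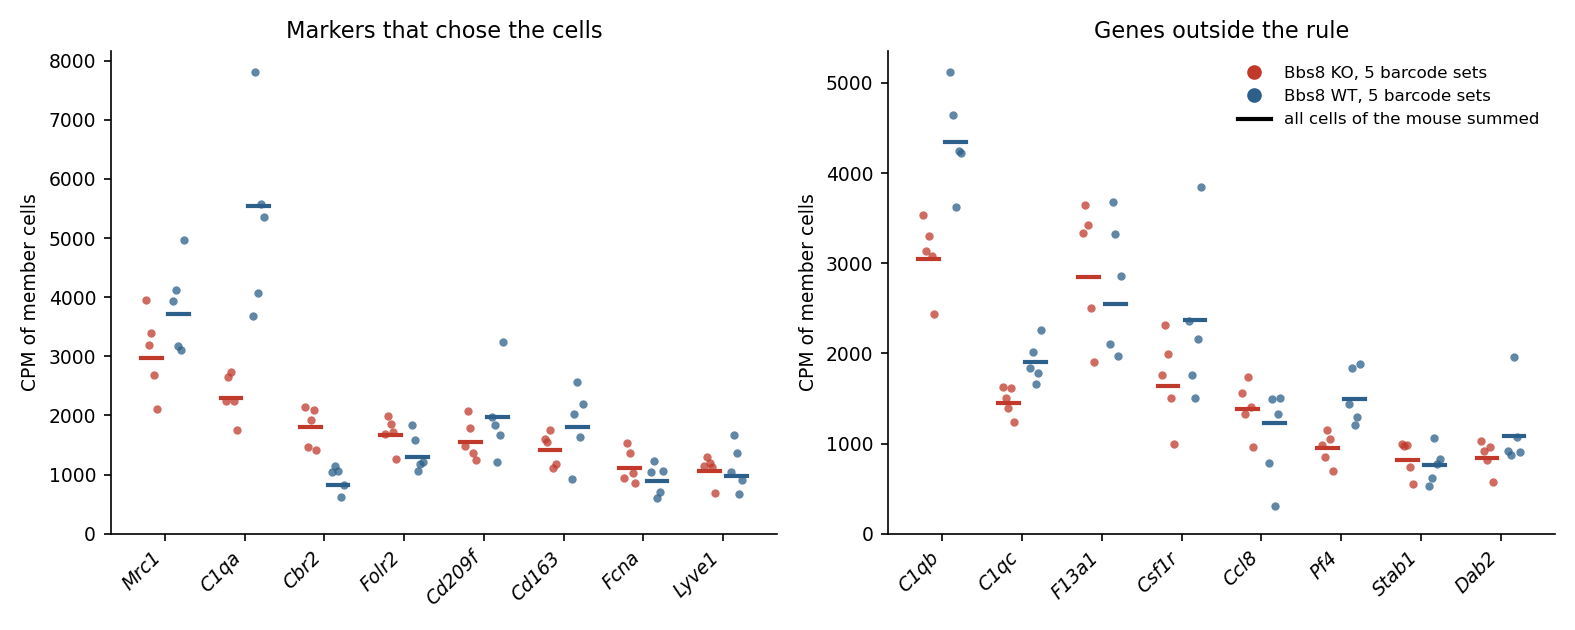
Level of the 8 selecting genes (left) and of 8 genes outside the selection (right) in member cells, in CPM on a linear axis, with 1 point for each of the 5 barcode sets of Bbs8 KO and Bbs8 WT and a bar at the pooled level of each genotype. C1qa lies lower and Cbr2 higher in all Bbs8 KO sets than in any Bbs8 WT set, while the other selecting genes overlap. C1qb, C1qc and Pf4 lie lower in all Bbs8 KO sets.

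C1qa and Cbr2 were the selecting genes that differed by over 2-fold, in opposite directions. C1qa (chr4:136895917-136898803, minus strand, GRCm38) was at 2247, 2645, 2742, 2246 and 1747 CPM in the Bbs8 KO sets, in the order above, and at 3673, 7807, 4074, 5572 and 5350 CPM in the Bbs8 WT sets. Every Bbs8 KO set was below every Bbs8 WT set, and the pooled levels of 2289 and 5546 CPM gave a log2 ratio of -1.27 (interval -1.45 to -1.10). A C1qa UMI was seen in 48.9% of Bbs8 KO and 76.4% of Bbs8 WT members, or in 32.4 and 64.5% after each cell was thinned to 200 UMIs. Lymphocyte-marked cells held at least 2 UMIs of the T cell or B cell list and were neither members nor monocyte-like. They showed one in 2.74 and 3.21%. Cells that met the selection had been taken out of them, so this share is partly set by the selection and is no background level.

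Cbr2 (chr11:120729489-120732114, minus strand) was at 2138, 1465, 1923, 2094 and 1422 CPM in the Bbs8 KO sets and at 1050, 1140, 1056, 616 and 829 CPM in the Bbs8 WT sets. All Bbs8 KO sets were above all Bbs8 WT sets, with pooled levels of 1802 and 826 CPM and a log2 ratio of 1.11 (0.74 to 1.54), which was 0.83 without WT4_p2. As both genes helped to select the cells, each was recounted in cells chosen without it: C1qa was then at 2092 and 5449 CPM (log2 ratio -1.37, interval -1.58 to -1.18) and Cbr2 at 1618 and 781 CPM (1.03, 0.64 to 1.48).

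The other 2 chains of C1q lie beside C1qa, C1qb at chr4:136880129-136886187 and C1qc at chr4:136889804-136893065, and differed less. C1qb was at 3046 CPM for Bbs8 KO against 4342 CPM in Bbs8 WT members (log2 ratio -0.51, -0.69 to -0.32) and C1qc at 1452 and 1905 CPM (-0.39, -0.67 to -0.11), again with every Bbs8 KO set lower. These 2 differences narrowed to -0.18 and -0.13 among members with 5 or more marker UMIs. The ratio of C1qa to C1qb UMIs was 0.752 for Bbs8 KO against 1.28 for Bbs8 WT members. By set it was 0.636 to 0.844 in Bbs8 KO, and in Bbs8 WT it was 0.718, 1.68, 1.12, 1.31 and 1.27, so that WT3_p1 fell within the Bbs8 KO range. C1qc per C1qb was 0.477 and 0.439. In cells outside the selection C1qa per C1qb was 0.402 for Bbs8 KO against 0.602 for Bbs8 WT. In monocyte-like cells the direction was opposite, at 0.273 and 0.194 on 27 and 7 C1qa UMIs. C1qa helped to choose the cells, so the selection shapes this ratio inside and outside the members.

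Across the 1706 genes with a mean over both mice of at least 100 CPM in members, 72 (4.22%) were at least 2-fold higher in Bbs8 KO and 97 (5.69%) at least 2-fold lower, and the median log2 ratio was -0.14. When library scaling was set by trimmed mean of M-values (TMM) the same counts were 81 higher and 73 lower. Barcode sets did not overlap for 46 genes (2.70%) that were higher and 34 (1.99%) that were lower in Bbs8 KO, and 36 and 17 genes met both conditions. Of the 72 higher genes, 18 were also at least 2-fold higher in cells outside the selection, and of the 97 lower genes 15 were also 2-fold lower there. In those cells 45 of the 72 had a log2 ratio above 0 and 70 of the 97 one below 0. The share of all 1706 genes past 2-fold there is not given here, so nothing is read from this overlap. Of the 193 genes with at least 200 UMIs, 10 were 2-fold higher and 2 lower. In the mouse where they were low, 51 of the 72 higher and 66 of the 97 lower genes were under 100 CPM and so passed the level filter through the other mouse. Leaving out WT4_p2, the largest Bbs8 WT set, raised the lower genes from 97 to 208.

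**Figure D2:**
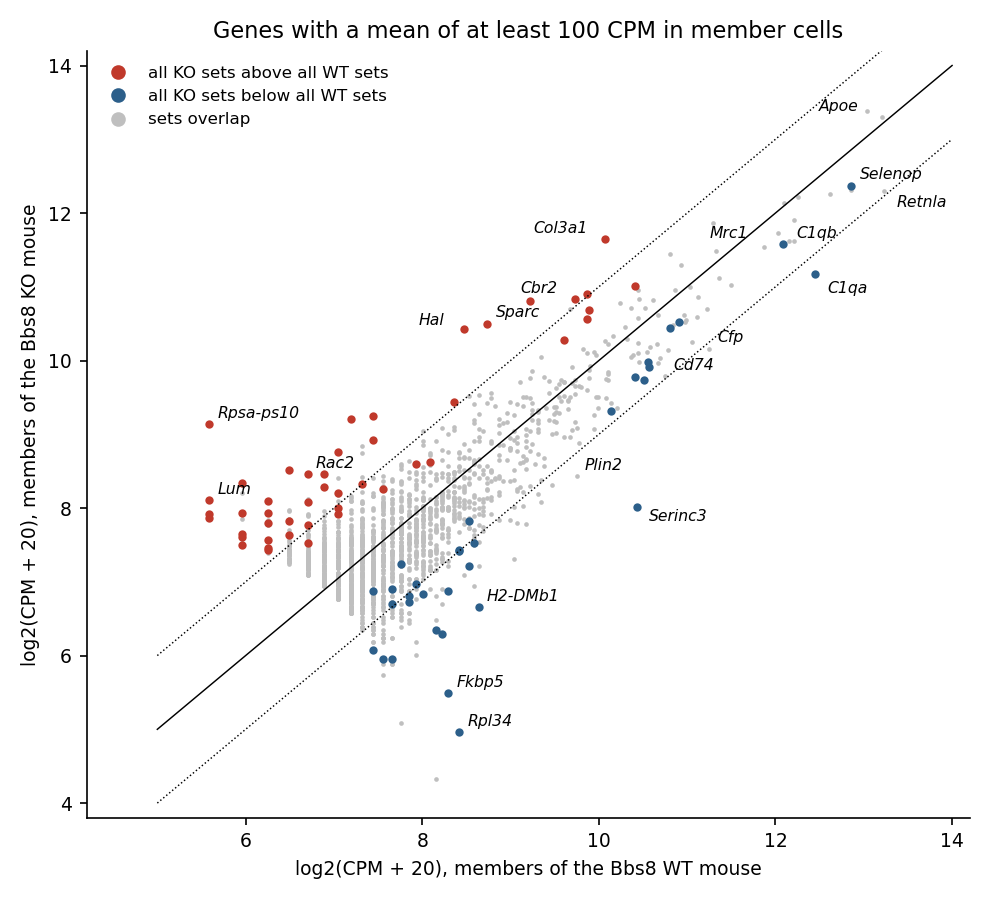
Level of each gene in members of the Bbs8 WT mouse (horizontal) and the Bbs8 KO mouse (vertical), both as log2(CPM + 20), with 1 point per gene, dotted lines at 2-fold, and colour for genes whose barcode sets did not overlap. Hal and Cbr2 lie above and C1qa, Cfp, Serinc3 and Fkbp5 below the diagonal, while Apoe lies close to it.

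The 10 genes with the highest ratio and separate sets were Rpsa-ps10, Lum, Ly6c1, Cd79b, Nid1, Fbn1, Igkc, Gm15564, Hal and Plpp3. Lum belongs to the stromal list and Cd79b and Igkc to the B cell list. Plpp3 turned direction among members with no T cell, B cell or stromal UMI. Of the 10, 8 were under 100 CPM in Bbs8 WT members and passed the filter through Bbs8 KO. Rpsa-ps10, a ribosomal protein pseudogene, differed by 3.56 in members and 4.47 in other cells, and Rpl34, the lowest gene, by -3.46 and -3.38. Both share sequence with near-identical copies, so their counts are uncertain, but what lies behind these differences was not tested.

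Hal, which stood higher in members than in other cells, encodes histidine ammonia-lyase, which starts histidine breakdown. Hal was at 1268, 1790, 1614, 1358 and 922 CPM in the Bbs8 KO sets and at 394, 439, 0, 308 and 452 CPM in the Bbs8 WT sets. Every Bbs8 KO set was above every Bbs8 WT set, and the pooled log2 ratio was 1.95 (1.42 to 2.66), from 486 and 24 UMIs. In 8 other selections of members it lay between 1.76 and 2.26. After thinning, a Hal UMI was seen in 20.6% of Bbs8 KO and 5.07% of Bbs8 WT members. Other cells held 67.9 and 9.31 CPM.

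The genes with the lowest ratio and separate sets were Rpl34, Fkbp5, Serinc3, H2-DMb1, H2-T24, Pde3b, Atp5k, Atp2c1, Itga4 and Gnl3. All but Serinc3 (9 of 10) were under 100 CPM in Bbs8 KO members and passed the filter through Bbs8 WT. Serinc3, a membrane protein of the serine incorporator family, was at 290, 244, 190, 241 and 250 CPM in the Bbs8 KO sets and at 1837, 1754, 453, 1324 and 1281 CPM in the Bbs8 WT sets. Its log2 ratio was -2.41 (-2.94 to -2.07) in members and -1.08 in other cells. Fkbp5, a co-chaperone induced by glucocorticoids, rested on 9 UMIs for Bbs8 KO against 21 in Bbs8 WT members, at 25.0 and 294 CPM (-2.80), and was at -1.21 in other cells.

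The complement list, with 8 genes past the level filter, held 1 gene 2-fold higher and 1 lower, about what the shares over all genes (4.22 and 5.69%) give, and had a median log2 ratio of -0.35 against -0.14 over all genes. The higher gene, Serping1, the C1 inhibitor, rested on 5 UMIs in Bbs8 WT members (1.08) and was under 2-fold without KO6_p3 (0.85), WT3_p2 (0.88), WT3_p3 (0.96) or WT4_p3 (0.84), and at 2.05 without WT4_p2. The lower gene was Cfp, properdin, which stabilises the alternative pathway convertase. Cfp was at 1178, 1323, 1389, 914 and 933 CPM in the Bbs8 KO sets and at 1050, 3158, 1660, 2309 and 3165 CPM in the Bbs8 WT sets. The set WT3_p1 lay inside the Bbs8 KO range and the other 4 Bbs8 WT sets lay above it, with a pooled log2 ratio of -1.08 (-1.36 to -0.83). It fell just short of 2-fold without WT3_p2 or without WT4_p3 (-0.98).

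Of the 6 MHC class II presentation genes past the level filter, 1 was 2-fold lower, beside 5.69% of all genes. Its sets were also separate, and 17 of all 1706 genes met both conditions. It was H2-DMb1, which was under 100 CPM in Bbs8 KO members and passed the filter through Bbs8 WT. All 6 had ratios below 0, as had 58.8% of all genes, with a median of -0.72 against -0.14 over all 1706 genes, and their list summed to 7560 CPM for Bbs8 KO against 11078 CPM in Bbs8 WT (-0.55). Cd74, the invariant chain, was at 815, 773, 736, 1028 and 912 CPM in the Bbs8 KO sets and at 2493, 1579, 2112, 1847 and 754 CPM in the Bbs8 WT sets. WT4_p3 fell within the Bbs8 KO range and the other 4 Bbs8 WT sets lay above it (pooled log2 ratio -0.96, -1.28 to -0.66). H2-Aa (-0.81), H2-Eb1 (-0.52) and H2-Ab1 (-0.30), which encode chains of class II molecules, and H2-DMa made up the rest of the 6. The list ran the other way in all other cells, where its sum was 1.06 log2 units higher in Bbs8 KO, and in monocyte-like cells, where it was 0.64 higher. Among members with no T cell, B cell or stromal UMI the median of the list was -0.77. H2-DMb1 was called 2-fold lower (80.7 and 378 CPM), but its near-identical neighbour H2-DMb2 was higher in Bbs8 KO, and the 2 together differed by -1.18 when summed.

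**Figure D3:**
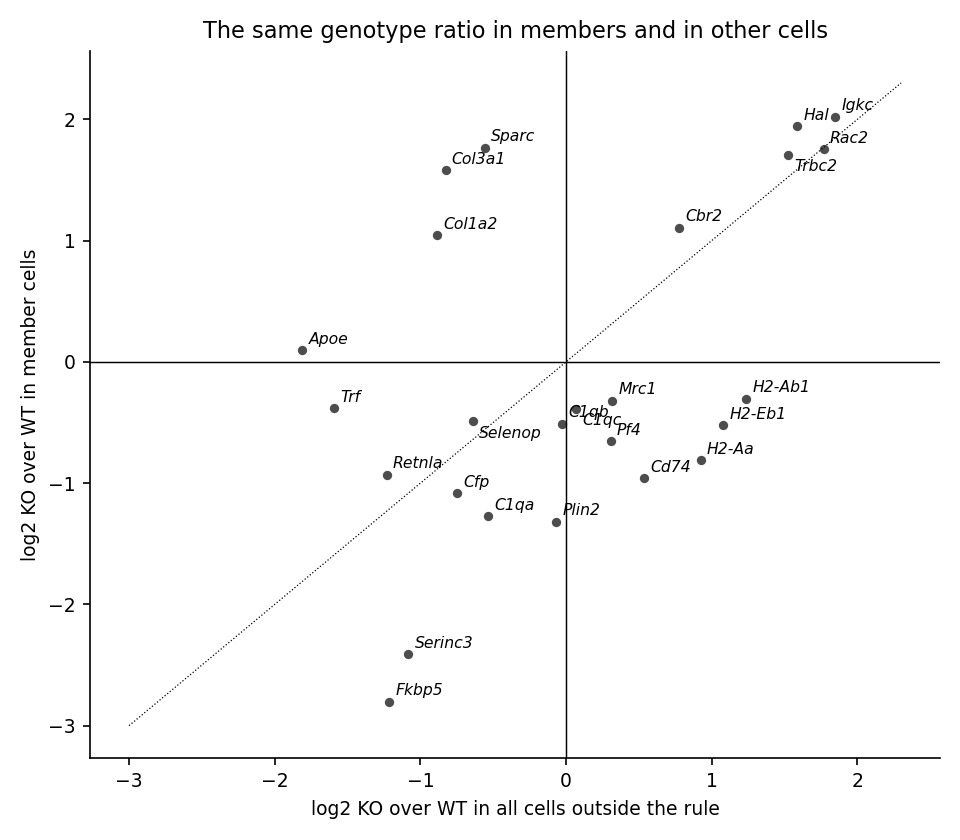
Log2 ratio of Bbs8 KO over Bbs8 WT in all cells outside the selection (horizontal) and in members (vertical) for named genes, with the line of equal ratios dotted. MHC class II genes lie at the lower right, below 0 in members and above 0 in other cells, and Apoe lies near 0 in members but at -1.81 elsewhere.

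Of 9 lipid handling genes 1 was 2-fold higher and 1 lower, beside 4.22 and 5.69% of all genes, and the median was -0.26. Apoe, the lipoprotein ligand of lipid export, was at 10835, 9847, 10635, 10368 and 8986 CPM in the Bbs8 KO sets and at 8789, 10702, 5582, 10067 and 8968 CPM in the Bbs8 WT sets. The sets overlapped and the pooled log2 ratio was 0.10 (-0.02 to 0.22), whereas in all other cells Apoe was at 2257 and 7973 CPM (-1.81). Plin2, a coat protein of lipid droplets, was the lower gene, at 325 and 840 CPM (-1.32, -1.83 to -0.89). Its Bbs8 WT sets ran from 0 to 1228 CPM and thus overlapped the Bbs8 KO sets at 206 to 453 CPM. Lpl was the higher gene, at 506 and 238 CPM, on 17 UMIs in Bbs8 WT of which 14 came from WT4_p2, and was lower in Bbs8 KO among other cells (-1.18). Its ratio of 1.03 in members was 2.44 without WT4_p2 and under 2-fold without KO6_p2 (0.94), WT3_p2 (0.79), WT3_p3 (0.90) or WT4_p3 (0.83). Trem2, Cd9, Gpnmb and Itgax, which mark lipid-associated macrophages of obese fat, held at most 10 UMIs each in members of either mouse.

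Of 6 alternative activation genes 0 were past 2-fold, as the shares over all genes (4.22 and 5.69%) would give, and the median was -0.23 against -0.14 over all genes. Retnla, a secreted protein induced by interleukin 4, was at 5562, 6124, 6326, 4987 and 3006 CPM in the Bbs8 KO sets and at 11938, 5175, 9052, 9944 and 11530 CPM in the Bbs8 WT sets. WT3_p2 fell within the Bbs8 KO range and the other 4 Bbs8 WT sets were above it, with a log2 ratio of -0.93 (-1.06 to -0.80). Retnla was lower in Bbs8 KO in monocyte-like cells as well, at 7258 and 20826 CPM, and in all other cells, at 912 and 2170 CPM.

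For the remaining lists the counts were about what the shares over all genes (4.22 and 5.69%) give, and nothing is read from them. Of the core macrophage list 0 of 17 genes were 2-fold higher and 1 lower, the efferocytosis receptor Mertk on 24 and 11 UMIs, with a median of -0.38, and of the resident genes outside the selection 0 of 16 were past 2-fold, with a median of -0.16. Scavenger and endocytic receptors had 0 of 13 (median -0.04), lysosomal genes 0 of 19 (-0.21), iron and heme genes 0 of 8 (-0.20), chemokines 0 of 6 (-0.32) and interferon response genes 0 of 8 (-0.44). Of 7 immediate early and heat shock genes 1 was higher, Nfkbia, an inhibitor of NF-kappaB, on 5 UMIs in Bbs8 WT (1.05). Nfkbia was under 2-fold without KO6_p1 (0.94), WT4_p2 (0.94) or WT4_p3 (0.82), and Mertk without KO6_p2 (-0.77), WT3_p2 (-0.97) or WT4_p3 (-0.51), and marginally without KO6_p3. The Fc receptor and phagocytosis list had 1 of 14 in each direction (-0.46), Mertk again and Rac2, an oxidase subunit that is abundant in lymphocytes and was also higher in other cells (1.77). Csf1r (-0.52), Selenop (-0.49), a selenium carrier, and Pf4 (-0.65) were lower in the pooled Bbs8 KO members. Several medians turned among the 154 Bbs8 KO and 86 Bbs8 WT members with no T cell, B cell or stromal UMI. They were 0.30 for resident genes, 0.37 for scavenger receptors, 0.08 for iron and heme and 0.06 for Fc receptors and phagocytosis. For chemokines the median was 0.24, for alternative activation 0.35 and for immediate early genes 0.29, and Selenop moved to -0.04. The core macrophage, lysosome and interferon medians stayed below 0 (-0.06, -0.08 and -0.21). Summed lists stayed below 0 for alternative activation (-0.56), Fc receptors and phagocytosis (-0.12) and chemokines (-0.06). At 5 or more marker UMIs the interferon median was 0.31 and the lipid median 0.21. Ctsb, a lysosomal protease, was at 4461 and 4370 CPM. Tnf, Il10, Cxcl1, Cxcl10, Ccl4 and Marco had 0 UMIs in members of both mice. Cx3cr1, chosen after its values were seen, had 34 UMIs for Bbs8 KO against 0 in Bbs8 WT members, which is at least 2.25-fold higher when Bbs8 WT is set at 3 UMIs.

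**Figure D4:**
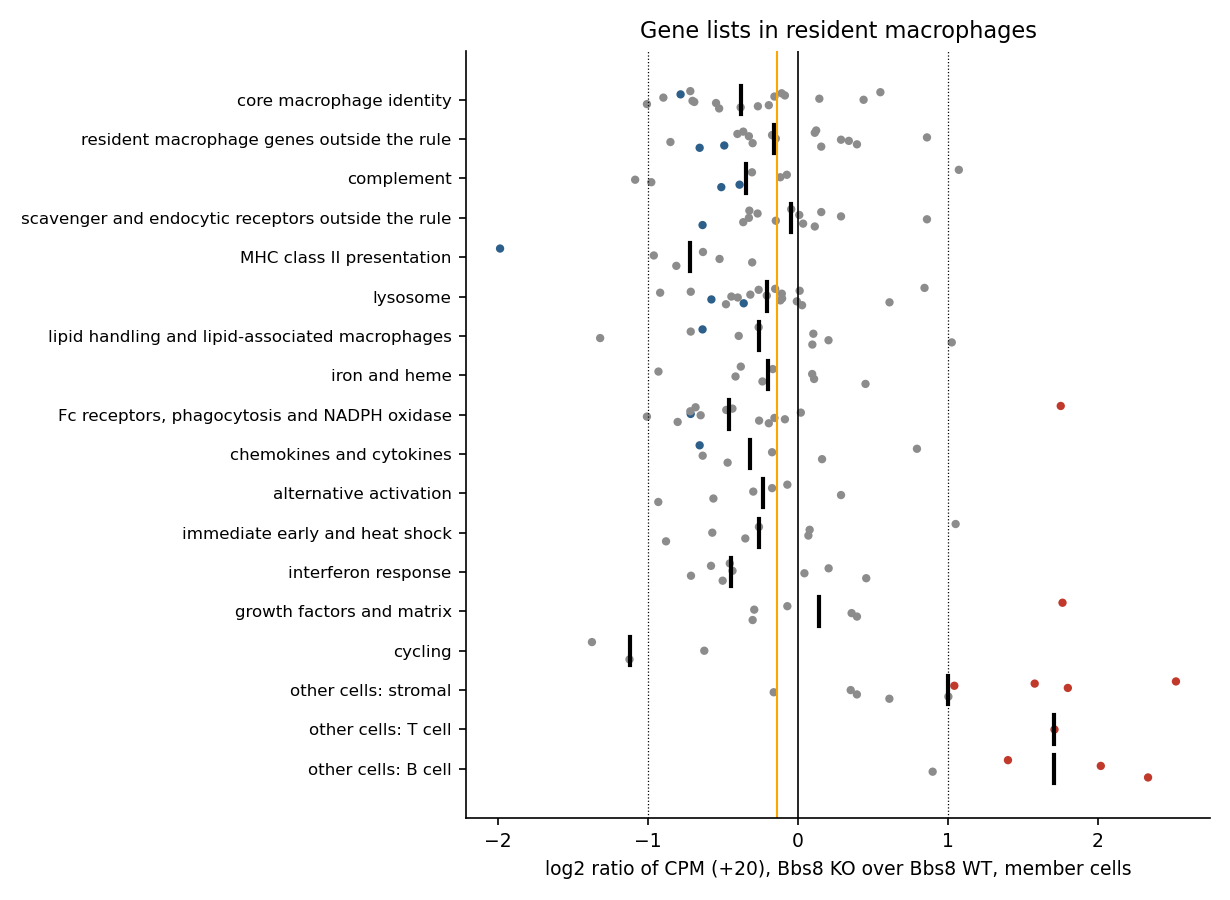
Log2 ratio of Bbs8 KO over Bbs8 WT in members for each gene past the level filter, grouped by list, with a black bar at the median of each list, an orange line at the median of all genes, dotted lines at 2-fold, and colour for genes whose barcode sets did not overlap. MHC class II genes lie below 0, the T cell and B cell genes and 8 of 9 stromal genes lie above it, and most macrophage lists lie around the overall median.

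Lists of other cell types held several of the higher genes, beside 4.22% of all genes that were higher. Of the stromal list, 5 of 9 genes were 2-fold higher in Bbs8 KO members, Lum, Col1a1, Col3a1, Col1a2 and Serpinf1, with a median of 1.01. Leaving out single sets put Col1a2 at 0.89 to 1.78 and Serpinf1 at 0.75 to 1.73, with the highest value of each without WT4_p2. Without that set Col1a1 was at 2.64, Col3a1 at 2.11 and Lum at 3.79. Of the B cell list 3 of 4 were, Cd79b, Igkc and Ighd, with a median of 1.71. Lum, Serpinf1, Cd79b and Ighd were under 100 CPM in Bbs8 WT members and passed the filter through Bbs8 KO, so these counts and medians support nothing. The T cell list had 1 gene past the filter, the receptor chain Trbc2, which was higher (1.71, or 3.24 without WT4_p2). Growth factor and matrix genes had 1 of 6 higher, Sparc, a matrix protein of stroma (1.77). The summed stromal list ran from 7359 to 9626 CPM in the Bbs8 KO sets and from 1181 to 6157 CPM in the Bbs8 WT sets. Of the stromal list, Dcn, Col1a1, Col1a2, Col3a1 and Lum were capped by the selection itself and the other genes were not.

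Cycling genes were seen in a small share of members. At least 2 UMIs of the cycling list (Mki67, Top2a and others) were found in 47 Bbs8 KO members (5.99%, 4.44 to 7.89) and 12 Bbs8 WT members (7.27%, 3.81 to 12.4), against 2.87 and 2.95% of other cells, 7.6 and 15.8% of monocyte-like cells and 2.57 and 11.2% of lymphocyte-marked cells. By set the share ran from 2.56 to 11.9% in Bbs8 KO and from 4.41 to 11.8% in Bbs8 WT. Of the 3 cycling genes past the level filter, Mki67 was at 273 and 616 CPM, Top2a at 211 and 336 CPM (-0.62) and Birc5 at 47.3 and 154 CPM. Birc5 was under 100 CPM in Bbs8 KO members and passed the filter through Bbs8 WT, and it was under 2-fold without WT4_p3 (-0.87), as was Mki67 without KO6_p1 (-0.94) or WT3_p3 (-0.98). The intervals of the shares overlapped, and cells with these UMIs were deeper, with medians of 543 and 654 UMIs.

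Members were divided by whether they held a UMI of Lyve1, Cd163, Cd209f or Fcna, which gave 572 with and 212 without in Bbs8 KO and 110 with and 55 without in Bbs8 WT. The 4 genes are among the 8 that chose the cells, so members without them had to pass on Folr2, Cbr2, Mrc1 and C1qa alone, and what follows is a description of the selected cells that thinning does not free of the selection. The log2 ratio of the summed MHC class II list, members with such a UMI over members without, was -0.97 (-1.08 to -0.86) in the Bbs8 KO mouse and -1.19 (-1.39 to -0.98) in Bbs8 WT, and it was below 0 in all 5 sets of each genotype. H2-Ab1 was at 2728 CPM with and 5472 CPM without these markers in Bbs8 KO, and at 2945 and 7047 CPM in Bbs8 WT. With every cell thinned to 200 UMIs before the division, the ratios of the list were -0.69 and -0.63, and again below 0 in every set. H2-Ab1 alone was then at -0.67 (-0.95 to -0.40) in the Bbs8 KO mouse but at -0.35 (-0.91 to 0.21) in the Bbs8 WT mouse, where 2 of 5 sets were above 0.

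The same ratio for resident genes outside the selection was 0.98 in the Bbs8 KO mouse and 1.28 in the Bbs8 WT mouse, or 0.74 and 1.21 after thinning. These genes also increased with the marker sum that chose the cells, as Selenop shows at 2312 CPM in Bbs8 KO members with a sum of 2 against 7419 CPM at 5 or more, and nothing is supported by the ratio. It was 0.74 and 0.73 for complement genes and 0.80 and 1.22 for scavenger receptors. The core macrophage list was at 0.29 and -0.05 and the Fc receptor and phagocytosis list at 0.46 and -0.07, and after thinning they were at 0.12 and 0.27 and at 0.18 and 0.28. Members without the markers also held more stromal transcripts (-0.65 and -1.34), and the B cell list was higher in them in Bbs8 KO (-0.29) but lower in Bbs8 WT (0.83). The part of other cells' transcripts in the class II difference was not tested.

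**Figure D5:**
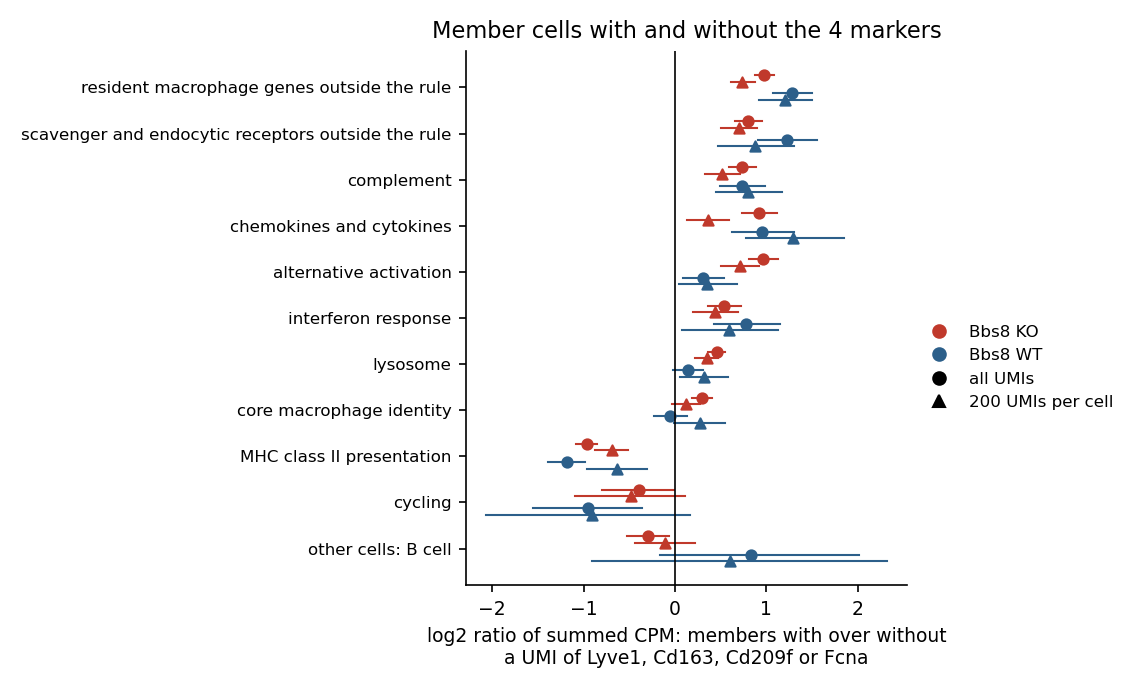
Log2 ratio of members with a UMI of Lyve1, Cd163, Cd209f or Fcna over members without one, for summed gene lists, in each mouse, with 95% counting intervals. Circles use all UMIs and triangles cells thinned to 200 UMIs. MHC class II lies below 0 and the resident, complement and scavenger lists lie above 0 in both mice.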

How the data were processed

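Single-cell transcriptomes were measured in the stromal vascular fraction of inguinal white adipose tissue of 1 Bbs8 KO and 1 Bbs8 WT mouse with Seq-Well S3. The authors demultiplexed reads with bcl2fastq 2.20, aligned them to mm10 with STAR, counted UMIs per gene and cell and filtered cells in Seurat, and the deposited table holds whole-number UMI counts of 14623 genes in 10914 cells. Every deposited cell held between 101 and 994 genes and at most 20.0% mitochondrial UMIs. The study's methods describe evening sequencing depth with scuttle, and whether the deposited counts are from before or after that step is not given in the sources used here. All cell columns were mapped to a genotype from their names, and barcode sets were taken from the same names.

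Members were selected by the stated rule, and their UMIs were summed per genotype and per set and scaled to CPM. Genes with a mean of at least 100 CPM over both mice were compared as log2 of CPM plus a pseudocount of 20, and 2-fold (a log2 ratio of 1) was taken as a call. Sets were called separate when all sets of one genotype lay beyond all of the other. Intervals are exact: Poisson for CPM, conditional binomial for ratios (without the pseudocount) and Clopper-Pearson for shares, all at 95% and for counting error only. A count of 0 was given a floor of 3 UMIs. With 1 mouse per genotype no test was run. The barcode sets were treated as technical after the series design, although their names carry 2 numbers per genotype whose meaning is not given in the sources used here, so what their spread measures is uncertain.

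Named genes were those of the rule, the 10 highest over other cells among genes with at least 500 CPM in each mouse, the 10 highest and 10 lowest between genotypes with separate sets, and in each of 16 macrophage and 10 other-cell gene lists the 4 with the highest mean level and any past 2-fold with separate sets. The members, lists and comparisons were chosen with earlier results of these data known. No doublet caller was run. Members with at least 2 UMIs of another class, stroma not counted, were left out as an alternative. Thinning drew 200 UMIs per cell without replacement, leaving shallower cells out. Alternatives covered the selection, depth, filter, pseudocount, scaling (edgeR 4.0.16 TMM and DESeq2 1.42.0 size factors) and each set in turn. Promoter sequences were from RefSeq (GRCm38.p6) and gene positions from the GRCm38 annotation. The scripts were tested on simulated counts. Python 3.11.15, numpy 2.4.6, pandas 2.3.3 and scipy 1.17.1 were used.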

Additional observations from a re-analysis of the deposited data

Results flagged for a closer look

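In the barcode set KO6_p3, Lyve1 stood apart from the other Bbs8 KO sets, at 684 CPM against a median of 1141 CPM. In WT3_p3, Dab2 stood apart from the other Bbs8 WT sets, at 1961 CPM against a median of 918 CPM. These were found among 56 such comparisons of the lowest or highest set with the rest, of which chance flags about 1 in 20.

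For 4 matrix genes the genotype ratio ran opposite ways in members and in all other cells, with every set of the genotypes separate both times. The log2 ratio of Bbs8 KO over Bbs8 WT was 1.58 in members and -0.83 in other cells for Col3a1, 1.80 and -0.62 for Col1a1, 1.04 and -0.88 for Col1a2, and 1.77 and -0.56 for Sparc. The difference was not tested. Col3a1, Col1a1 and Col1a2 are among the genes whose share the selection capped in members, and Sparc is not.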

How the results depend on the processing

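No paired analysis was possible because the barcode sets could not be matched to the replicate numbers of the labelled samples and each genotype was 1 mouse. The share of members (Bbs8 KO minus Bbs8 WT, 0.17 points) was 2.52 points at 1 marker UMI, 2.12 in cells with at least 200 genes, -1.45 with stromal genes under 1% and -1.80 when members with UMIs of another class were left out, and -0.30 to 0.60 without single sets. Genes 2-fold higher (72) and lower (97) numbered 159 and 284 after thinning, 268 and 221 at a filter of 50 CPM, 22 and 27 at 200 CPM, and 1399 and 420 with no filter. The lower genes alone moved to 64 at 1 marker UMI, 166 in cells with at least 200 genes, 54 at a pseudocount of 50 and 164 without Gm42418 and mitochondrial genes. Without single sets they ranged over 68 to 99 higher and 87 to 208 lower. TMM gave 81 and 73.

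Genes with separate sets higher in Bbs8 KO (46) numbered 30 at 3 marker UMIs, 27 with stromal genes under 1%, 27 after thinning, 93, 23 and 627 at filters of 50 CPM, 200 CPM and none, and 52 to 67 without single sets. Those lower (34) numbered 17 after thinning, 20 in cells with at least 200 genes, 18 at 200 CPM and 36 to 74 without single sets, where fewer sets make separation easier. The lower count was over 1.5 times the main one without any 1 Bbs8 WT set: 56 (WT3_p1), 52 (WT3_p2), 53 (WT3_p3), 74 (WT4_p2) and 59 (WT4_p3). The cause was not tested for the other counts.

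Further selections were chosen after seeing the data. At 5 marker UMIs the share difference was -1.41 points and 22 and 17 genes had separate sets. With no T cell, B cell or stromal UMI it was -2.74 points, with 167 higher, 236 lower, and 14 and 5 separate. Of the 72 higher genes 22 and of the 97 lower genes 56 were also called there. Values past 2-fold turned direction for Flt1 (-0.019) and Myh11 (-0.10) at 1 marker UMI, Wfdc18 (0.62) and the summed mammary epithelial list (0.31) with other-class members left out, Epcam (0.19 without WT3_p2) and Plpp3 (-0.13 with no T cell, B cell or stromal UMI). Epcam, at -1.44 on 4 UMIs in all, reached -2.09 without WT4_p2. Smaller values also turned, among them the summed pericyte list (0.99, -0.50 at 5 marker UMIs), the mast list (-0.50, 0.79 at 3 marker UMIs), and resident genes (-0.22, 0.19) and scavenger receptors (-0.12, 0.28) with no T cell, B cell or stromal UMI. Of 3350 planned values of named genes 3233 moved by less than their counting interval, as did 660 of 725 of lists. In the further selections 320 of 402 values of named genes and 49 of 87 of lists did. The planned tallies include the filters of 50 CPM, 200 CPM and none, which cannot change a ratio. Genes with few UMIs also have wide intervals, so these tallies do not measure stability. Members are shallow, and genes under about 200 UMIs in members are only roughly measured.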
